A study of Homo sapiens with 28 samples.

Results

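The 10 member genes described here, DOT1L, KMT2A (MLL), MEN1, AFF1, AFF3, AFF4, MLLT1, MLLT3, MLLT10 and ELL, code for the histone methyltransferase DOT1L, for MLL and its cofactor menin, and for proteins of the DOT1L and super elongation complexes that also occur as MLL fusion partners. They were taken by gene name from the array annotation, where each is represented by 1 probe set, and they are 10 of the 17687 named genes tested. The genes were read in 7 human acute myeloid leukemia (AML) cell lines kept for 8 days in 1 µM Pinometostat, a small molecule that blocks DOT1L, or in its vehicle, 0.01% DMSO. An MLL rearrangement (MLL-r) is present in 4 of the lines (MOLM-13, MV4-11, THP-1, NOMO-1) and absent from 3 (non-MLL-r: HL-60, OCI-AML3, U-937). Each line has 2 control and 2 treated Clariom S arrays, numbered 1 and 2, which makes 28 arrays. The values are log2 signals normalized by RMA (robust multi-array average, which corrects background, quantile-normalizes the arrays and summarizes the probes of each gene).

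As background, DOT1L is the enzyme that methylates lysine 79 of histone H3 (H3K79), a mark found along transcribed genes. AF10 (MLLT10) is its cofactor, and AF9 (MLLT3) and ENL (MLLT1) are paralogous readers of acylated histones that bind either DOT1L or an AFF scaffold. AF4 (AFF1), LAF4 (AFF3) and AF5q31 (AFF4) are the scaffolds of the super elongation complex, in which the elongation factor ELL and the kinase P-TEFb release paused RNA polymerase II. MLL, the product of KMT2A, is a histone H3 lysine 4 methyltransferase that binds unmethylated CG dinucleotides through its CXXC domain and is held on chromatin with the help of menin (MEN1). In MLL-r leukemia the start of MLL is fused to the end of a partner, most often one of these elongation proteins, and DOT1L is brought to MLL target genes. MV4-11 carries MLL-AF4, and MOLM-13, NOMO-1 and THP-1 carry MLL-AF9. U-937 carries a fusion of PICALM with MLLT10. Which exons the probes of KMT2A, AFF1, MLLT3 and MLLT10 cover is not given in the sources used here, so the signal of a normal gene and that of its fusion transcript cannot be told apart in these lines.

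The promoters of AFF1 and AFF3 are shown because these were the members with the most calls after Pinometostat, and CG dinucleotides are in capitals because they are the sequence that the CXXC domain of MLL recognizes. The windows are from RefSeq (GRCh38.p14), run 5′ to 3′ along the gene's strand, and reach from 250 bases before to 50 bases after an annotated start. AFF1 lies on the plus strand of chromosome 4, with windows at chr4:86934761-86935060 and chr4:87007021-87007320.
AFF1, window 1: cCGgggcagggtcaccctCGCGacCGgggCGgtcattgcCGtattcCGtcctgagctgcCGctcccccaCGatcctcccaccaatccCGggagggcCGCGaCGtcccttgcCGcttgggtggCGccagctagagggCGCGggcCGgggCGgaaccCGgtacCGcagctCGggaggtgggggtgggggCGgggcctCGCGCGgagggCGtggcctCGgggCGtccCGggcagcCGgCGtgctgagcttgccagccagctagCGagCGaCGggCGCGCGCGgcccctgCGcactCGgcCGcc
AFF1, window 2: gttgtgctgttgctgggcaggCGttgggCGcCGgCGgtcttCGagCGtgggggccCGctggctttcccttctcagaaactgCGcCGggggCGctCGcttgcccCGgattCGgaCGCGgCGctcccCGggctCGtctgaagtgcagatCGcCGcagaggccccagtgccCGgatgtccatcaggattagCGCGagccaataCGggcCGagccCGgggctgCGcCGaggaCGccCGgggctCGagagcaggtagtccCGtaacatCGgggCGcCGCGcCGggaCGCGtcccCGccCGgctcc
AFF3 lies on the minus strand of chromosome 2, with windows at chr2:100142541-100142840 and chr2:100105534-100105833.
AFF3, window 1: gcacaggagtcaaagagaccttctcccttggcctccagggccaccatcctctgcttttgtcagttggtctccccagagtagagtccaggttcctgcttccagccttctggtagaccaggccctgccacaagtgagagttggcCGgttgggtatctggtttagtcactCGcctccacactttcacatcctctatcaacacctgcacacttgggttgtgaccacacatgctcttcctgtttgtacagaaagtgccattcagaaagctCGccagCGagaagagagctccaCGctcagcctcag
AFF3, window 2: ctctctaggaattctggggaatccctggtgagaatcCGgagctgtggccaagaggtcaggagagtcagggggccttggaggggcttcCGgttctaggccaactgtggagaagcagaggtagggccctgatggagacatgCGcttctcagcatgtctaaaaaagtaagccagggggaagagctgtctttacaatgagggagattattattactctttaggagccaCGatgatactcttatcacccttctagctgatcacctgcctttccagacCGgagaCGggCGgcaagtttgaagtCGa
The windows of AFF1 hold 42 and 41 CG, a number reached by 5.85% and 6.69% of the 35116 promoter windows in the table. The windows of AFF3 hold 5 and 8 CG, a number reached by 70.4% and 60.7% of windows, and the median window holds 14. RefSeq windows were found for 9 of the 10 members, 13 windows in all, and those of the members other than AFF3 hold 15 to 45 CG. A CG here is read from the reference sequence, and its methylation and the binding of MLL were not measured on these arrays.

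The arrays were alike in scale, with medians over named genes from 5.67 to 5.80 log2, and the 2 replicates of a condition correlated at 0.953 to 0.985 across genes. No label tells whether the replicates of a line were grown apart, and a p within a line therefore measures only the spread between arrays, which may be technical. Of the myeloid markers 8 of 10 were measured, and their median signal in control cells ran from 7.25 in HL-60 to 9.47 in OCI-AML3, against 2.94 to 3.43 for 9 T and NK cell markers and 4.74 to 5.55 for 5 megakaryocyte markers. Levels of different probes cannot be set against each other and no detection call was used, so these medians describe the arrays and do not settle cell identity. After treatment, monocyte and macrophage markers were called higher most often in NOMO-1, 7 of 11, and least often in HL-60, 0 of 11, with 1 to 4 in the other lines. Of all 17687 genes, 841 were called higher in NOMO-1, 422 in MV4-11, 336 in OCI-AML3 and 305 in THP-1. In MOLM-13 it was 152, in U-937 53 and in HL-60 46, so 0 of 11 in HL-60 says little about these markers. Of 10 proliferation markers, 5 were called lower in MV4-11 and 2 in NOMO-1, and none in the other 5 lines.

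Pinometostat lowered 3 of the 10 genes in at least 1 line: the scaffold genes AFF1 and AFF3, each in 2 lines, and MLLT10, the DOT1L cofactor, in 1 line. AFF3 changed the most, 4.26-fold lower in OCI-AML3 and 3.64-fold lower in NOMO-1. No member was called higher, and DOT1L, KMT2A, MEN1, AFF4, MLLT1, MLLT3 and ELL were called in no line. A call is an unadjusted limma p under 0.05 with a change of at least 1 log2, in a fit of all genes within a line. Of the 70 gene and line pairs, 5 were called, all lower, where 2.64% of all such pairs were called in either direction and 0.896% lower. This background was not matched for signal. The median control signal of a line was 7.32 to 8.28 for the members and 5.69 to 5.77 over all genes. At a Benjamini-Hochberg adjusted p under 0.05 over all genes, 2 of the 70 pairs passed (background 0.691%), both of AFF3. In a fit blocked on the replicate number 6 passed (background 4.20%), namely the 5 called pairs and AFF4 in NOMO-1. Over all genes, the share called in either direction was 7.88% in NOMO-1, 3.91% in MV4-11, 2.44% in both THP-1 and OCI-AML3, 0.944% in MOLM-13, 0.435% in HL-60 and 0.413% in U-937. The share called lower was 3.12% in NOMO-1, 1.52% in MV4-11, 0.718% in THP-1, 0.537% in OCI-AML3, 0.175% in HL-60, 0.113% in U-937 and 0.0848% in MOLM-13, and the 3 lines with the lowest shares are those in which no member was called. Because the RNA is that of all cells of a sample, fewer cells of a type and less RNA per cell cannot be told apart.

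**Figure D1:**
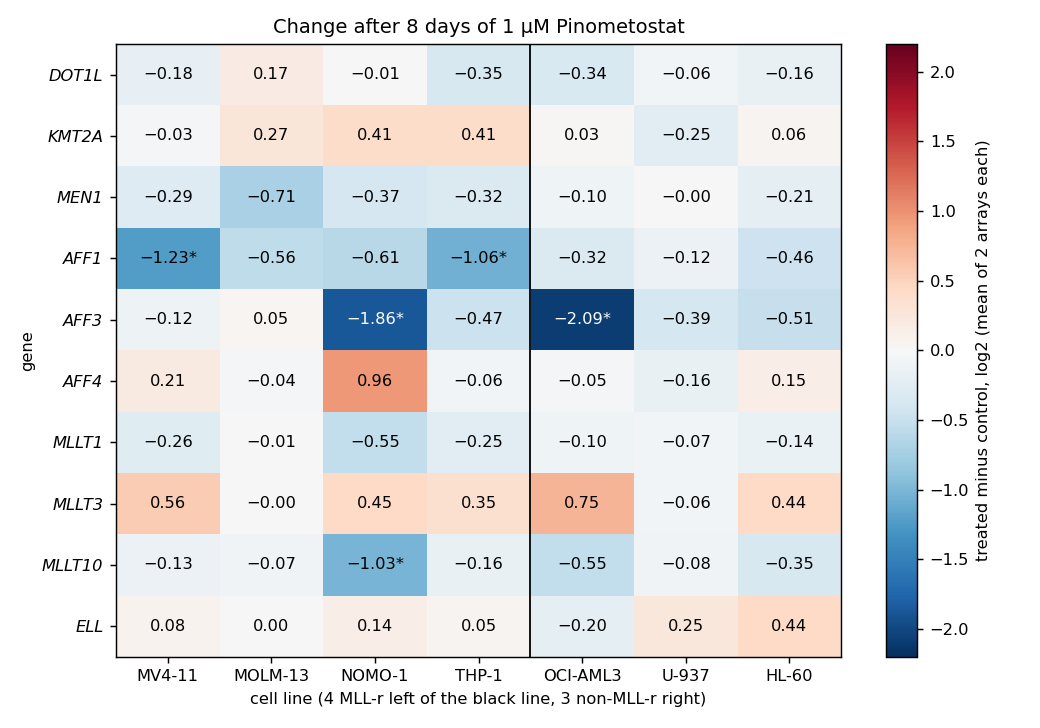
Treated minus control log2 change (mean of 2 arrays each) of the 10 genes (rows) in the 7 lines (columns), with the color scale in log2 and an asterisk on the 5 called pairs. AFF3 in OCI-AML3 (−2.09) and NOMO-1 (−1.86) and AFF1 in MV4-11 (−1.23) hold the lowest values, and the highest is AFF4 in NOMO-1 (0.96).

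DOT1L itself, the target of the drug, was not called in any line. Its control level ran from 7.45 in OCI-AML3 to 8.10 in MV4-11, and the 7 lines did not pass the test of a difference (limma F test on 14 control arrays, adjusted p = 0.701). With the replicate block the adjusted p of this F test was 0.0907, nearer to the threshold but not past it. Of the 21 pairs of lines, 0 differed at an adjusted p under 0.05 in the fit without the block. After Pinometostat DOT1L lay between 0.35 below (THP-1) and 0.17 above (MOLM-13) its control, with an average of −0.13 ± 0.09 (standard error over 7 lines, exact sign-change p = 0.109). It was lower in 6 of 7 lines, and in 10 of 14 pairs of treated and control arrays with the same replicate number. Treated and control arrays overlapped in all 7 lines. Of all genes, 37.5% in NOMO-1, 37.4% in MV4-11, 30.1% in THP-1 and 29.6% in U-937 had 2 treated arrays clear of both control arrays. The share was 28.9% in OCI-AML3, 23.8% in MOLM-13 and 22.7% in HL-60. The overlap of DOT1L cannot show that a smaller change was absent, because the 2 replicates of each condition themselves stood apart. The larger difference in DOT1L was the one between replicates: replicate 2 lay above replicate 1 in 14 of 14 pairs of arrays from the same line and condition, by 0.21 to 0.86 and by 0.57 on average, a direction that 2.76% of genes kept in 14 of 14 pairs. In MV4-11, for example, the control arrays read 7.67 and 8.53 and the treated arrays 7.69 and 8.15. MLLT1 shifted the same way in 13 of 14 pairs, by 0.63 on average, and ELL in 11 of 14, by 0.39. What the replicate number stands for is not given in the sources used here. The replicate numbers occur once in each condition, so this shift cancels in the treated minus control means, and in the blocked fit the standard error of the DOT1L change was smaller, for example 0.20 in place of 0.35 in MV4-11. Where 1 replicate of 1 condition is left out the shift no longer cancels, and the DOT1L average then lies anywhere from −0.44 (without control replicate 1) to 0.18 (without control replicate 2).

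**Figure D2:**
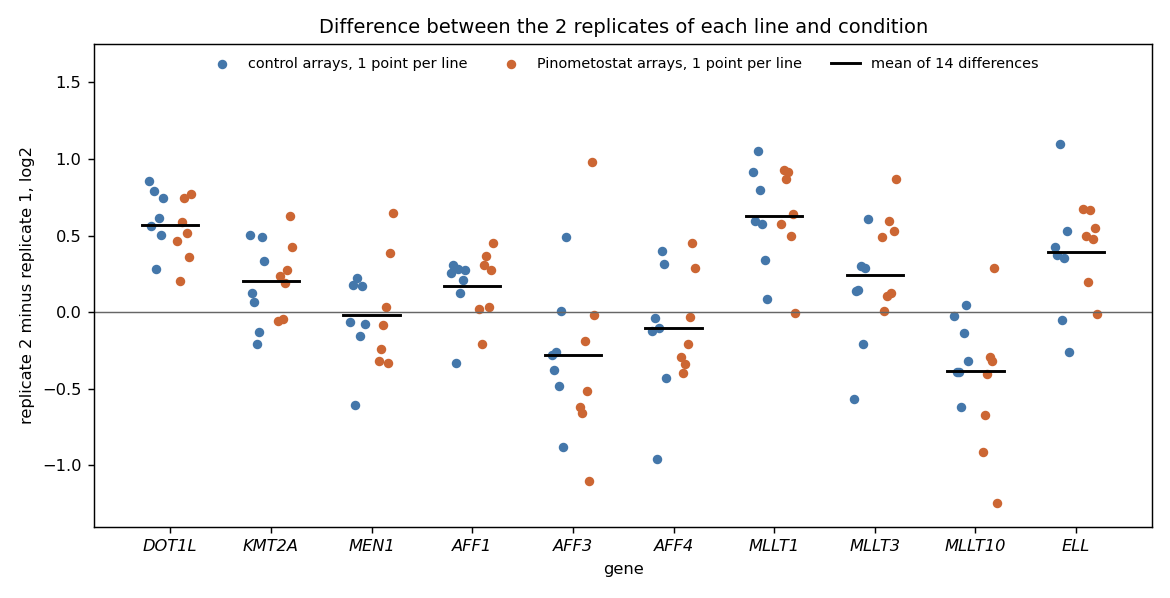
Replicate 2 minus replicate 1 in log2 (y axis) for each of the 10 genes (x axis), 1 point per line for control and for treated arrays, with the mean of 14 differences as a black bar. All 14 points of DOT1L lie above 0 (mean 0.57), while those of MEN1 spread on both sides (mean −0.02).

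KMT2A, the MLL gene, was lowest in NOMO-1 (6.99 ± 0.05, SD, n = 2), THP-1 (7.17 ± 0.15) and MOLM-13 (7.34 ± 0.09), the lines with MLL-AF9, and highest in MV4-11 (8.60 ± 0.36) and HL-60 (8.63 ± 0.24). The lines differed (F test adjusted p = 0.000797), with 8 of 21 pairs of lines at an adjusted p under 0.05, though no 2 neighbors in the order did. The 4 MLL-r lines (mean 7.52 ± 0.73, SD) and the 3 non-MLL-r lines (8.07 ± 0.49) overlapped and did not pass the test (exact permutation p = 0.314). That difference of −0.55 in KMT2A was −0.91 without MV4-11, then under an unadjusted limma p of 0.05 but with an adjusted p of 0.797, and −0.27 without HL-60. After Pinometostat the KMT2A difference from control was 0.41 ± 0.32 (standard error) in NOMO-1, 0.41 ± 0.29 in THP-1 and 0.27 ± 0.32 in MOLM-13. In these 3 lines both treated arrays lay above both control arrays, for example 7.42 and 7.38 against 6.96 and 7.02 in NOMO-1. Of all genes, 37.5% in NOMO-1, 30.1% in THP-1 and 23.8% in MOLM-13 did not overlap in either direction. None of these changes passed the threshold, adjusted or not, and the changes in the other 4 lines were between −0.25 and 0.06.

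MEN1, which codes for menin, ran in control cells from 7.04 in NOMO-1 to 8.52 in OCI-AML3 (F test adjusted p = 0.00306), with 7 of 21 pairs of lines differing. Its change after treatment was below 0 in 7 of 7 lines, although in U-937 it was −0.0047 and in OCI-AML3 −0.10. The largest change was in MOLM-13, where the control arrays read 8.07 and 8.25 and the treated arrays 7.57 and 7.33, a difference of −0.71 ± 0.32 that was not called (adjusted p = 1.00). Treated arrays lay below control arrays in the 4 MLL-r lines, where 23.8% to 37.5% of all genes did not overlap in either direction, and overlapped them in the 3 non-MLL-r lines (22.7% to 29.6% of genes without overlap). The line changes themselves did not overlap between MLL-r (mean −0.42) and non-MLL-r lines (mean −0.10), which is so for 7.28% of genes. The exact permutation test of that difference gave p = 0.0286, the smallest that 35 splits allow, and limma across all genes gave p = 0.103 (adjusted p = 0.803). The MEN1 difference between these groups of lines was −0.51 without treated replicate 1 and −0.13 without treated replicate 2.

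AFF1, the scaffold fused to MLL in MV4-11, was lower after Pinometostat in all 7 lines, and in 14 of 14 pairs of arrays with the same replicate number, which held for 0.300% of genes. Its fall was largest in MV4-11, where the control arrays read 10.85 and 11.11 and the treated arrays 9.74 and 9.76. This is a change of −1.23 ± 0.28, 2.35-fold lower (limma adjusted p = 0.0828, adjusted p = 0.0113 with the replicate block), and 2.22% of genes moved as far in that line. In THP-1 the control arrays read 10.42 and 10.69 and the treated arrays 9.32 and 9.68, a change of −1.06 ± 0.30, 2.08-fold lower (adjusted p = 0.301, adjusted p = 0.0100 with the block). Called lower in at least 2 lines were 0.769% of genes, AFF1 and AFF3 among them. The THP-1 call is lost without control replicate 2 (−0.92) and without treated replicate 1 (−0.88), fits in which the remaining array of that condition is assumed to vary like the other condition's. Proliferation markers were called lower in MV4-11 (5 of 10) and not in THP-1 (0 of 10). Monocyte and macrophage markers were called higher in THP-1 (3 of 11, median change 0.54) and MV4-11 (1 of 11, 0.47), as were myeloid markers (2 of 8, median change 0.56, and 1 of 8, 0.36). Both lists hold LYZ, so their counts are not independent. The part of these markers in the AFF1 values was not tested.

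In the remaining lines AFF1 was not called. The change was −0.61 ± 0.34 in NOMO-1, −0.56 ± 0.33 in MOLM-13, −0.46 ± 0.34 in HL-60, −0.32 ± 0.30 in OCI-AML3 and −0.12 ± 0.22 in U-937. Treated arrays lay below control arrays in 6 of the 7 lines, where 22.7% to 37.5% of all genes did not overlap in either direction. They overlapped the control arrays in U-937. The average over the 7 lines was −0.62 ± 0.13 (limma adjusted p = 0.166), and the exact sign-change test gave p = 0.0156, the smallest that 128 sign changes allow. The changes of the 4 MLL-r lines (mean −0.86) lay below those of the 3 non-MLL-r lines (mean −0.30) without overlap, as for 7.28% of genes in either direction. That difference of −0.56 ± 0.22 was under an unadjusted limma p of 0.05, as for 6.18% of genes, but had an adjusted p of 0.787 and an exact permutation p of 0.0857, so it was not called. In control cells AFF1 averaged 10.58 ± 0.56 (SD) in MLL-r and 10.52 ± 0.65 in non-MLL-r lines (exact permutation p = 0.914), with HL-60 (9.78) and NOMO-1 (9.79) lowest and OCI-AML3 (11.02) highest.

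**Figure D3:**
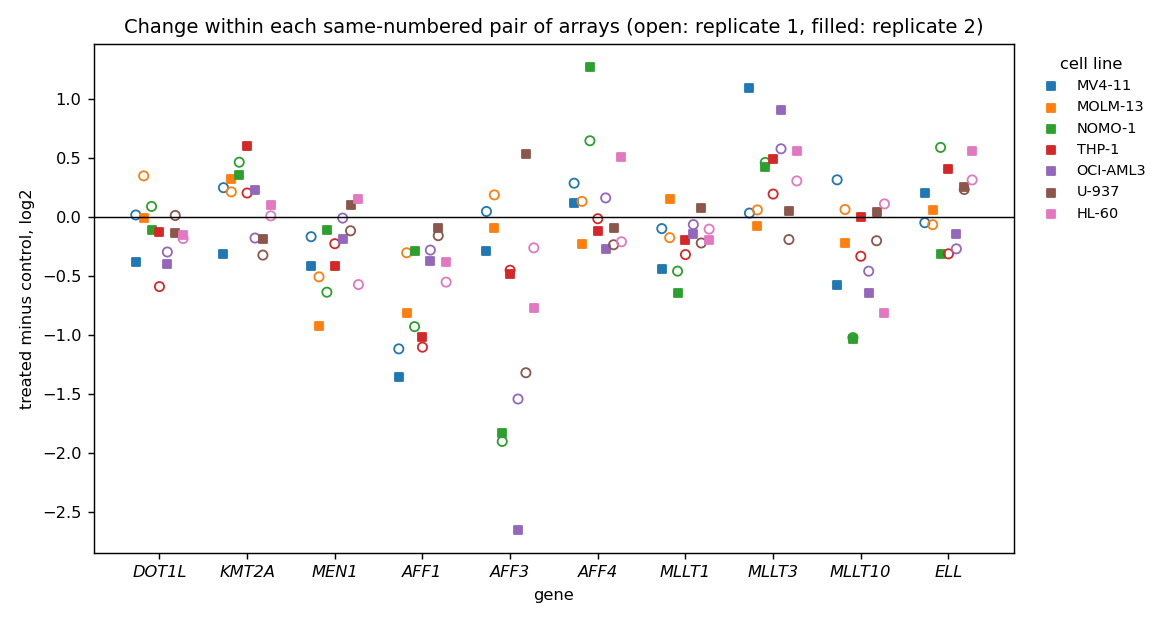
Treated minus control log2 change within each pair of arrays that share a replicate number (y axis), for the 10 genes (x axis), colored by line, with open circles for replicate 1 and filled squares for replicate 2. All 14 points of AFF1 lie below 0, and the lowest points of AFF3 belong to OCI-AML3 and NOMO-1.

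AFF3, another AFF scaffold, was the member that differed most between lines. In control cells it was high in all 4 MLL-r lines, at 8.81 ± 0.20 (SD, n = 2) in MV4-11, 8.20 ± 0.18 in NOMO-1, 7.81 ± 0.27 in MOLM-13 and 7.57 ± 0.34 in THP-1. OCI-AML3 followed at 6.81 ± 0.0038, and HL-60 (3.65 ± 0.35) and U-937 (3.26 ± 0.62) were far below. The only neighbors in this order that differed were OCI-AML3 and HL-60 (gap 3.15, adjusted p = 8.1e-06). Of the 21 pairs of lines 13 differed, the most of any member. MLL-r lines averaged 8.10 ± 0.54 and non-MLL-r lines 4.57 ± 1.94, without overlap, as for 7.75% of genes. The difference of 3.52 ± 0.82 had an exact permutation p of 0.0286, the smallest possible, and was under an unadjusted limma p of 0.05, as for 6.49% of genes, but its adjusted p was 0.728. Without OCI-AML3, the non-MLL-r line with the highest AFF3, the AFF3 difference was 4.64 and passed adjustment (limma adjusted p = 0.0176). That setting leaves only HL-60 and U-937 on the non-MLL-r side. Without U-937 the AFF3 difference was 2.87 and did not pass (limma adjusted p = 0.778). No detection call was used here, so whether AFF3 was expressed in HL-60 and U-937 is not settled by these values.

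Pinometostat lowered AFF3 in 1 MLL-r and 1 non-MLL-r line. In OCI-AML3 the control arrays read 6.80 and 6.81 and the treated arrays 5.26 and 4.16, a change of −2.09 ± 0.37 (adjusted p = 0.0161), 4.26-fold lower, and 0.283% of genes moved as far. The 2 treated arrays of OCI-AML3 stood further apart than its control arrays (SD 0.78 against 0.0038). In NOMO-1 the control arrays read 8.33 and 8.07 and the treated arrays 6.43 and 6.25, a change of −1.86 ± 0.33 (adjusted p = 0.0238), 3.64-fold lower, reached by 1.98% of genes. Monocyte and macrophage markers were called higher in both lines, 4 of 11 in OCI-AML3 and 7 of 11 in NOMO-1, and their part in the fall of AFF3 was not tested. U-937, where 3 of 11 of these markers were called higher, had an AFF3 change of −0.39 ± 0.39 from an already low level. In THP-1 3 of 11 were called higher and AFF3 changed by −0.47 ± 0.32. In MOLM-13 it was 2 of 11 with 0.05 ± 0.36, and in MV4-11 1 of 11 with −0.12 ± 0.31. HL-60 had 0 of 11 and −0.51 ± 0.34. AFF3 was called in none of these lines.

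In MV4-11 and MOLM-13, where AFF3 was also high in control cells, the changes were −0.12 ± 0.31 and 0.05 ± 0.36, and treated and control arrays overlapped. THP-1 was at −0.47 ± 0.32 and HL-60 at −0.51 ± 0.34. A test of whether the change of AFF3 differed among the 7 lines gave an adjusted p of 0.0762 (limma F test over 28 arrays), and of 0.0266 with the replicate block, where 3.33% and 10.7% of all genes passed. The other 9 members did not pass this test in either fit. Averaged over the lines the change was −0.77 ± 0.25 (adjusted p = 0.274, exact sign-change p = 0.0312).

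AFF4, the third scaffold, was not called, and its largest difference had the opposite sign. In NOMO-1 its control arrays read 8.75 and 7.79 and its treated arrays 9.40 and 9.06, a change of 0.96 ± 0.40 (adjusted p = 0.399), just under the 1 log2 of a call. Both same-numbered pairs were higher there, and the adjusted p with the replicate block was 0.00947. The other 6 lines lay between −0.16 and 0.21. In control cells AFF4 was lowest in HL-60 (7.05) and U-937 (7.64) and highest in THP-1 (8.86), and 6 of 21 pairs of lines differed. The NOMO-1 control arrays of AFF4 were 0.96 apart, and its change was 1.44 without control replicate 1 and 0.48 without control replicate 2. With 1 control array left, the whole spread comes from the 2 treated arrays and the moderation over genes, so the call reached at 1.44 assumes that the lone array varies like them.

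The YEATS readers MLLT1 and MLLT3, which bind the same partners, gave average differences of opposite sign, neither past adjustment. The MLLT3 difference averaged 0.35 ± 0.11 over 7 lines (adjusted p = 0.268, exact sign-change p = 0.0625), above 0 in 5 lines and in 12 of 14 same-numbered pairs. The MLLT1 difference averaged −0.20 ± 0.09 (adjusted p = 0.381, exact sign-change p = 0.0156), below 0 in 7 lines and in 12 of 14 pairs, and 4.32% of genes were lower in at least 12 of 14. Its average turns to 0.11 without control replicate 2 and to 0.12 without treated replicate 1, settings in which the replicate numbers are no longer balanced. The highest change of MLLT3 was in OCI-AML3, where the control arrays read 6.82 and 6.61 and the treated arrays 7.40 and 7.53, a difference of 0.75 ± 0.30 (adjusted p = 0.725). MV4-11 (0.56 ± 0.32) and NOMO-1 (0.45 ± 0.33) also had both treated arrays above both control arrays, though the same-numbered pairs of MV4-11 differed by 0.04 and 1.09. In HL-60 (0.44 ± 0.41) and THP-1 (0.35 ± 0.32) both same-numbered pairs were higher, while the arrays overlapped. MOLM-13 (−0.0026) and U-937 (−0.06) were near 0. Of all genes, 28.9% in OCI-AML3, 37.4% in MV4-11 and 37.5% in NOMO-1 did not overlap in either direction. The MLLT3 average was 0.16 without treated replicate 2 and 0.55 without treated replicate 1. In these settings the shift of MLLT3 between replicates, 0.25 on average, does not cancel. The MLLT1 changes ran from −0.55 ± 0.46 in NOMO-1 to −0.01 ± 0.41 in MOLM-13, and the arrays overlapped in all lines but HL-60. The shift of MLLT1 between replicates spreads the arrays of a condition, so this overlap cannot show that a smaller change was absent.

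In control cells MLLT3 separated the lines and MLLT1 did not. MLLT3 was lowest in MV4-11 (5.68 ± 0.40, SD, n = 2), the line with MLL-AF4, and highest in U-937 (7.97 ± 0.20), THP-1 (7.93 ± 0.21) and MOLM-13 (7.81 ± 0.10). NOMO-1, which also carries MLL-AF9, was at 7.14 ± 0.10. The lines differed (F test adjusted p = 0.000144), with 11 of 21 pairs of lines apart, but MV4-11 and the next line, OCI-AML3 (6.72 ± 0.15), missed the threshold (adjusted p = 0.0542). MLLT1 ran from 7.51 in THP-1 to 8.25 in MV4-11, and 0 of 21 pairs differed (F test adjusted p = 0.669, and 0.118 with the replicate block).

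MLLT10, which codes for AF10, was lower after treatment in 7 of 7 lines but by at least 1 log2 only in NOMO-1. There the control arrays read 7.99 and 7.60 and the treated arrays 6.97 and 6.57, a change of −1.03 ± 0.35, 2.04-fold lower (adjusted p = 0.248, adjusted p = 0.00415 with the replicate block). This size was reached by 7.83% of genes in NOMO-1, and the call is lost without control replicate 1 (−0.83) or without treated replicate 2 (−0.82). Monocyte and macrophage markers were called higher in the same line (7 of 11), and their part in the MLLT10 value was not tested. OCI-AML3 followed at −0.55 ± 0.31, with both treated arrays (7.29 and 6.97) below both control arrays (7.75 and 7.61). In that line 28.9% of all genes did not overlap in either direction. In the other 5 lines the changes were between −0.35 and −0.07 and the arrays overlapped. The average was −0.34 ± 0.12 (adjusted p = 0.304, exact sign-change p = 0.0156). Without treated replicate 2 it was −0.08 and without treated replicate 1 it was −0.59. Replicate 2 minus replicate 1 averaged −0.38 for MLLT10, and in these 2 settings that shift does not cancel. In control cells MLLT10 was lowest in HL-60, at 5.63 ± 0.23, which differed from the next line, MV4-11 at 7.28 ± 0.02 (adjusted p = 0.000823). All 6 significant pairs of lines involve HL-60, and the remaining 6 lines lay between 7.28 and 8.10, with U-937, the line with the PICALM fusion, at 8.10 ± 0.04.

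ELL, the elongation factor, was called in no line, and its changes ran from −0.20 in OCI-AML3 to 0.44 in HL-60, with an average of 0.11 ± 0.09 (exact sign-change p = 0.203). The ELL average turned below 0 without treated replicate 2 (−0.11) and without control replicate 1, and was 0.33 without treated replicate 1, settings in which the shift between replicates does not cancel. Its control level, 6.60 in U-937 to 7.28 in MV4-11, did not separate the lines (F test adjusted p = 0.595, and 0.272 with the replicate block, 0 of 21 pairs). Across the 10 members, the test over 7 lines in control cells thus passed for 7 (all but DOT1L, MLLT1 and ELL), where 29.8% of all genes passed. These 3 also had the largest mean shifts between replicates, 0.39 to 0.63, closely followed by MLLT10 at −0.38.

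**Figure D4:**
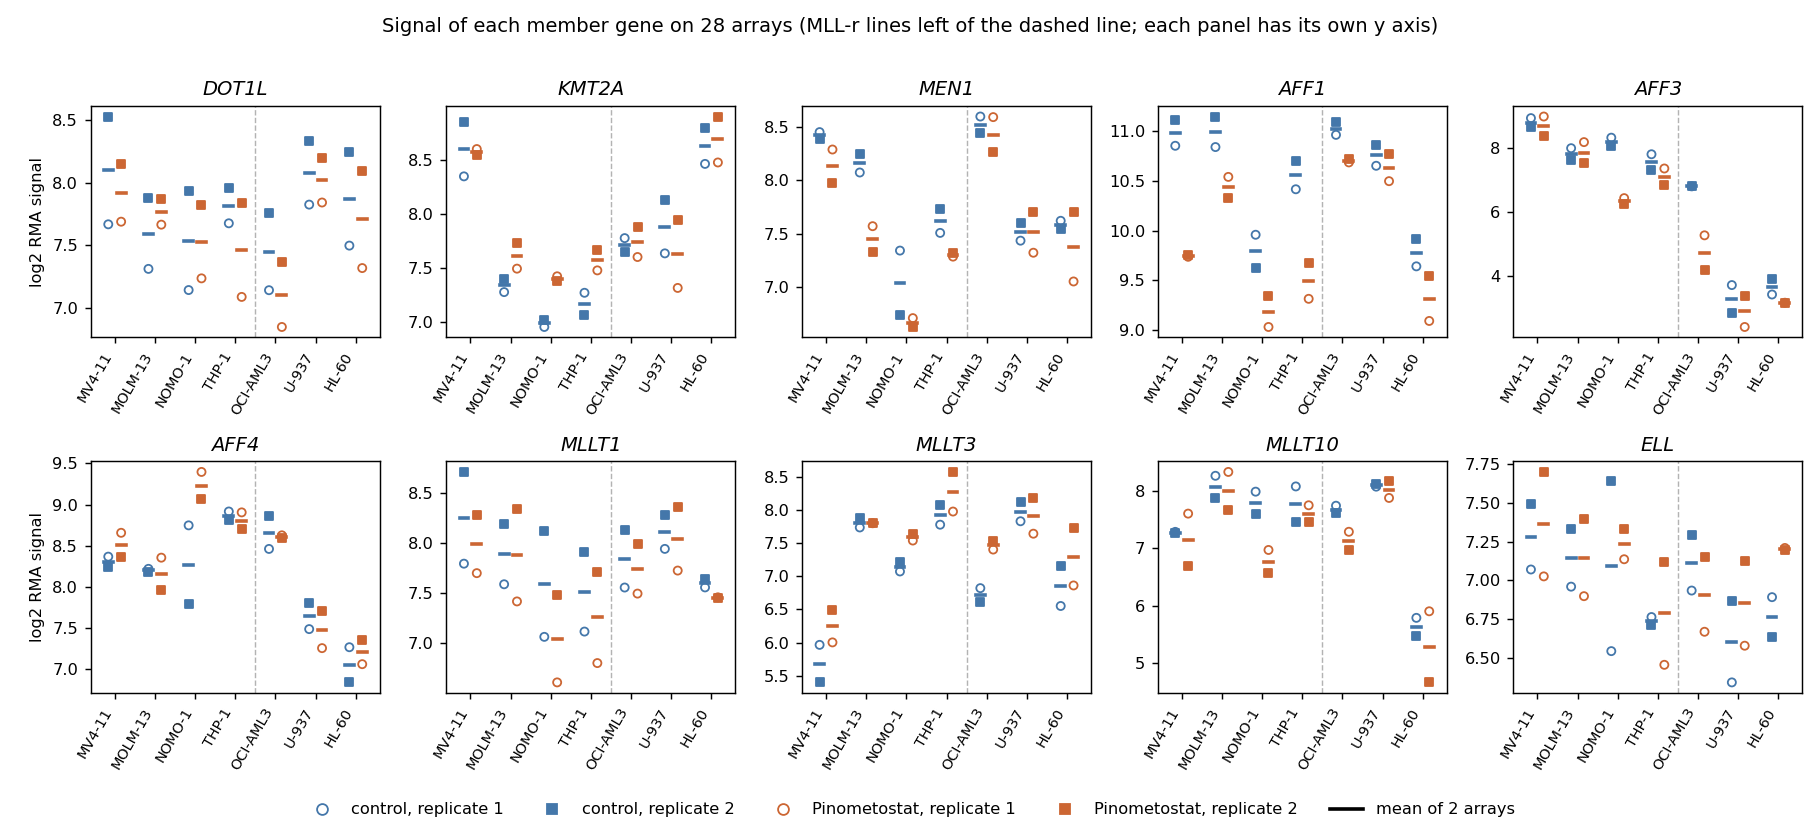
Log2 RMA signal (y axis, its own scale in each panel) of each gene on the 28 arrays, by line (x axis), with control arrays in blue, Pinometostat arrays in orange, open circles for replicate 1, filled squares for replicate 2 and bars for the mean of 2 arrays. AFF3 spans 3.26 to 8.81 in control cells, HL-60 stands apart for MLLT10 at 5.63, and the MLL-r lines are left of the dashed line.

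On the scale of the 7 lines together, no gene of the array passed an adjusted p under 0.05 for the average change, and 13.0% of genes had an unadjusted limma p under 0.05, 7.23% lower and 5.78% higher. Among the members 6 were under 0.05, AFF1, AFF3, MEN1, MLLT1 and MLLT10 lower and MLLT3 higher. MEN1 averaged −0.29 ± 0.10 (exact sign-change p = 0.0156). The lines agreed in sign for AFF1, MEN1, MLLT1 and MLLT10, below 0 in 7 of 7 lines, as for 2.75% of all genes. The median of the 10 average changes was −0.17, against −0.01 over all genes. In single lines the members' median ran from −0.21 in THP-1 to −0.0050 in MOLM-13, beside −0.01 and −0.03 over all genes in these lines.

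The wider set of DOT1L, super elongation, PAF1, COMPASS, H2B ubiquitination and YEATS partners and of further MLL fusion partners held 64 genes, of which 59 were measured by name. Calls were made in 6 of their 413 gene and line pairs, 2 higher and 4 lower, and 0 passed an adjusted p under 0.05 (17 with the replicate block). The 6 calls are 1.45% of the pairs, where 2.64% of all gene and line pairs were called. The 17 are 4.12%, about the same as the 4.20% of all pairs with the block. The gene called in the most lines was ELL2, a paralog of ELL in the super elongation complex. In THP-1 its control arrays read 7.36 and 6.92 and its treated arrays 9.04 and 8.56, a change of 1.66 ± 0.32, 3.17-fold higher, where 1.72% of genes were called higher (adjusted p = 0.0516, adjusted p = 0.000484 with the block). In NOMO-1 they read 7.97 and 7.98 against 9.33 and 9.24, a change of 1.31 ± 0.32, 2.48-fold higher, where 4.75% of genes were called higher (adjusted p = 0.0908, adjusted p = 0.000447 with the block). In the other 5 lines the ELL2 change was 0.20 to 0.63 and was not called.

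The 4 genes called lower were all called in NOMO-1, the line with the most calls (7.88% of all genes). SKIC8 (−1.17 ± 0.44, adjusted p = 0.320, 0.00138 with the block) and LEO1 (−1.12 ± 0.35, adjusted p = 0.193, 0.00210 with the block) code for subunits of the PAF1 complex, which travels with RNA polymerase II. EAF2 (−1.11 ± 0.33, adjusted p = 0.167, 0.00237 with the block) is a partner of ELL, and TET1 (−1.04 ± 0.42, adjusted p = 0.362, 0.0122 with the block) is a 5-methylcytosine dioxygenase first found as an MLL partner. TET1 was at 0.84 ± 0.30 in OCI-AML3, the opposite sign, which is short of a call (adjusted p = 0.523). In the COMPASS cofactors (14 measured), the H2B ubiquitination genes (7) and the YEATS, CBX8 and BCOR interactors (4), as in the other DOT1L complex subunits (4), no gene was called in any line. The median average change over the 59 genes was −0.07.

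By their pattern over 14 means (7 lines, control and treated), the genes most like DOT1L were KCTD15 (Pearson r = 0.920), UBQLN2 (0.853) and NAPRT (0.847). Those most like KMT2A were CALCB (0.927), DDX17 (0.909) and NPIPB5 (0.909), and those most like MLLT3 were FAM229B (0.872), STXBP5 (0.859) and C17orf58 (0.852). For MLLT10 they were STARD7 (0.968), VPS18 (0.957) and ERI1 (0.942), and the low level in HL-60 weighs on these. They are the highest of 17687 genes, the 14 means share lines and arrays, and the values are descriptions without a test.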

How the data were processed

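RNA of 28 samples was hybridized to Clariom S arrays (GeneChip WT PLUS labelling). Per the labels, the deposited log2 signals were made by the authors with RMA in R 3.6.1, and no further filter is named. Of 27189 table rows, 21448 are transcript probe sets, 17709 with 1 gene symbol. The 20 genes with several were averaged, leaving 17687 genes, tested without a filter. All 10 members are named.

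Tests used limma 3.58.1 (lmFit, eBayes) in R 4.3.3 over all genes: 2 treated against 2 control arrays within each line, an F test over lines on 14 control arrays and on the change over 28 arrays, and line means or line changes as samples for MLL-r against non-MLL-r and for the average. Single values were tested two-sided by exact permutation (35 splits) or sign change (128). P-values were adjusted by Benjamini-Hochberg over all genes. Replicate numbers pair the arrays: deviations of same-numbered arrays correlated at 0.42 to 0.64 in all 7 lines, so values with the replicate block stand beside results they change. The procedure was tested on simulated data. The array's number of samples limits the precision. Alternatives were other probe sets, a filter at 5 log2, median scaling, 1 fit over 28 arrays, and leaving out a replicate or a line.

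The members and gene lists were chosen with earlier results of these data known. All members were named, and partner genes by the number of lines called. Listed genes with no value of their own here, among them MLLT6, SETD1B and CBX8, were not analysed. Median signals in control cells were 5.11 to 5.69 for 6 erythroid and 4.87 to 6.07 for 6 B and plasma cell markers. For 7 stromal and epithelial markers they were 3.94 to 5.86. Over all genes the median of a line was 5.69 to 5.77. No detection call was used, so these values do not show that the markers were absent.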

Additional observations from a re-analysis of the deposited data

Results flagged for a closer look

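Single lines stood far from the rest for 4 of 40 groups of line values examined (control levels and changes, over 7 lines and over the 4 MLL-r lines), where chance alone flags about 1 group in 20. The measure is the gap from the extreme line to the nearest one, divided by the whole range (Dixon's ratio).

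MLLT10 gave 2 of these. In control cells HL-60 lay at 5.63, with the next of the 7 lines at 7.28 and the highest at 8.10 (ratio 0.667). After Pinometostat NOMO-1 changed by −1.03, with the other MLL-r lines between −0.16 and −0.07 (ratio 0.905).

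AFF4 gave the others. Its change of 0.96 in NOMO-1 stood apart from the next line at 0.21 and the lowest at −0.16 (7 lines, ratio 0.673). In control cells THP-1 lay at 8.86 among the MLL-r lines, with the other 3 between 8.20 and 8.31 (ratio 0.839). In the limma contrasts of pairs of lines, THP-1 differed from none of these 3 (adjusted p from 0.343 to 0.441).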

How the results depend on the processing

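The 5 calls kept their direction under all 10 alternatives tried for each, which was largely fixed in advance. Each member has 1 probe set. For these 5 pairs treated and control arrays did not overlap, so leaving out an array cannot reverse the sign. AFF1 in MV4-11 (−1.36 to −1.10) and AFF3 in NOMO-1 (−1.99 to −1.73) and OCI-AML3 (−2.64 to −1.54) stayed called, while AFF1 in THP-1 and MLLT10 in NOMO-1 were lost in 2 settings each, given beside them. Their adjusted p ran over these alternatives from 0.00512 to 0.432 (AFF1 in MV4-11), 0.0100 to 1.00 (AFF1 in THP-1), 6.9e-06 to 0.0858 (AFF3 in NOMO-1), 1.5e-08 to 0.0259 (AFF3 in OCI-AML3) and 0.00415 to 1.00 (MLLT10 in NOMO-1). The number of member and line pairs past an adjusted p under 0.05 was 2, rose to 6 with the replicate block and 5 in one fit over 28 arrays, and was 2 to 3 leaving out a replicate; calls by p and size were 4 to 6. The number of members whose change differed among lines was 0, and 1 (AFF3) with the block; pairs of partner genes and lines past adjustment went from 0 to 17 with it. For the average over 7 lines, 0 members passed adjustment, and 0 to 2 leaving out a replicate. Leaving out a replicate, which unbalances the replicate numbers, put the MLLT1 average anywhere from −0.51 to 0.12; it turned to 0.11 and 0.12 without control replicate 2 and without treated replicate 1. The MLL-r against non-MLL-r difference of the AFF1 change at an unadjusted p under 0.05 (1 member) became 0 members without MV4-11, THP-1, OCI-AML3 or U-937, and 0 to 1 leaving out a replicate. In control cells that count of members was 1 and became 2 without MV4-11 (AFF3 and KMT2A) and without OCI-AML3 (AFF3, which then passed adjustment as 1 member, and AFF4), and 1 to 2 leaving out a replicate; the cause was not tested. The F test over lines in control cells was not run with a replicate left out, since no residual degrees of freedom remain. Leaving out a replicate leaves 1 array in a condition, assumed to vary like the others.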
